A study of Gallus gallus with 6 samples.

Results

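Collagens and the proteins that sit with them in the stromal matrix were followed here in ovarian tissue of 6 hens (Gallus gallus). They are the 54 genes whose probe sets carry, as their only symbol in the platform's probe table, a collagen alpha chain name or 1 of 13 other matrix genes (FN1, DCN, LUM, POSTN, SPARC, THBS1, THBS2, LOX, TNC, FBN1, FBLN1, VCAN and OGN). They had 155 of the 38439 non-control probe sets on the array, and 54 of the 13009 gene symbols. Each gene was read on its probe set with the highest mean signal.

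RNA from whole ovaries was hybridised to Affymetrix chicken arrays, 1 array per hen, and the value of a probe set is a signal intensity. The cancer group was 3 hens with tumours, called replicates 4, LB14 and LB11, and the normal group was 3 hens without gross or microscopic signs of ovarian cancer, called replicates 36, LB3 and LB22. Age and laying status were matched between the hens, per the series' design text, and tumours were either limited to the ovary or had also seeded the abdomen. The sources used here give neither strain, nor age in numbers, nor the stage of each tumour, and state no treatment of any hen. Every array is a hen of its own in the labels, which makes the spread one between animals, and precision is limited by having 3 arrays per group. The comparison asks whether tumour-bearing ovaries had other levels of matrix transcripts than normal ones, and how far the tumours differed from each other.

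Collagens are trimers of alpha chains wound into a triple helix. Fibrillar collagens build the tensile fibres of connective tissue, fibril-associated collagens coat those fibres, type IV collagens form the sheet-like networks of basement membranes, and type VI collagen forms beaded filaments around cells. Fibroblasts make most of the fibrillar kind. In the hen ovary such matrix lies in the stroma and in the theca around each follicle, and a basement membrane separates the granulosa cells from the theca. Because whole tissue was measured, fewer cells of a type and less RNA per cell cannot be told apart in any value below.

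All 6 arrays had the same trimmed mean signal (500.1 after removal of 2% at each end), and the 3'/5' signal ratios of the actin and GAPDH controls, a measure of RNA quality, lay between 1.03 and 1.17 in tumours and between 0.918 and 1.16 in normal ovaries. The background limit was taken on each array from 59 control probe sets and lay between 25.5 and 44.6 in signal. That their transcripts were not spiked in was assumed. Testing required a mean signal of at least 66.9 over the 6 ovaries, and 44 of the 54 genes passed. COL7A1 (mean signal 64.4) lay just outside this limit and THBS1 (75.3) just inside. COL10A1 and THBS1 had normal means under the limit and entered through their tumour signals, so no count over the 44 stands for all members.

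The fibrillar collagen genes were mostly several times lower in the tumour of hen 4 than in the other tumours and the normal ovaries. For the collagen I chains, read on their brightest probe sets, tumours LB14 and LB11 lay within the normal range. Across the groups no matrix gene passed the test. Of the 44 tested genes, limma (two-sided, Benjamini-Hochberg adjustment over all 23063 tested probe sets, threshold 0.05) gave 0 higher and 0 lower in cancer, with adjusted p-values between 0.173 and 0.966. Over all tested probe sets 0.234% were called higher and 0.0434% lower. At an unadjusted limma p under 0.05 there were 3 matrix genes higher and 10 lower, against 5.06% of all tested probe sets higher and 5.01% lower. Differences are given as cancer minus normal on the log2(signal + 16) scale, which understates changes of dim genes. Where an SE is given, it is limma's.

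The difference was negative for 30 of the 44 genes, against 50.5% of all tested probe sets, and its median was −0.44, against −0.0039 over all tested probe sets. Without tumour 4, 25 of the 44 were negative and the median was −0.06. In 7 genes all tumours lay below all normal ovaries (8.03% of all tested probe sets did), and in 2 genes all tumours lay above them (7.45% of all). The 7 were COL12A1, COL24A1, COL4A3, COL4A4, COL4A5, COL4A6 and VCAN. The 2 were COL10A1, which entered the test only through its tumour signals, and COL17A1. With tumour 4 left out the counts were 8 below (15.2% of all) and 7 above (15.1% of all). Those above include COL10A1 and THBS1, which entered the test through their tumour signals.

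**Figure D1:**
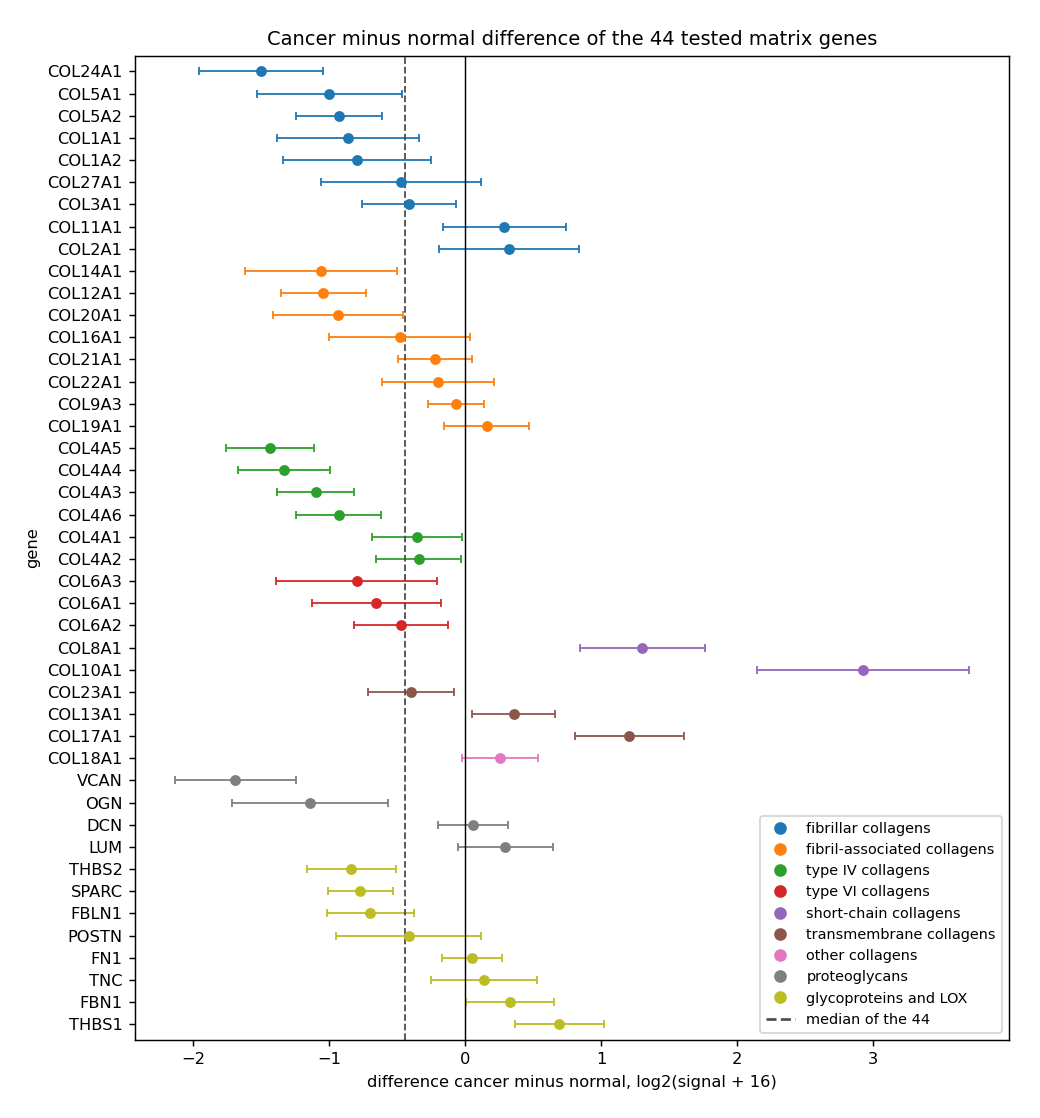
Cancer minus normal difference of the 44 tested matrix genes on the log2(signal + 16) scale, 1 row per gene, coloured by kind of protein; bars are limma's SE (n = 3 hens per group) and the dashed line is the median of the 44, −0.44. Most fibrillar, fibril-associated, type IV and type VI genes lie left of 0, while COL10A1, COL8A1 and COL17A1 lie furthest to the right; the place of COL10A1 depends on the pseudocount.

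The chains of collagen I, the main fibre-forming collagen, showed the gap between the tumours. COL1A1 had signals of 5138, 20935 and 25880 in tumours 4, LB14 and LB11, against 33144, 19171 and 26231 in normal ovaries 36, LB3 and LB22. Its partner chain COL1A2 had 3863, 18462 and 18637 in the tumours and 24973, 13998 and 19956 in the normal ovaries. On these probe sets tumour 4 was the lowest of the 6 ovaries for both chains, and the other tumours lay within the normal range. The 5 tested probe sets of COL1A2 had differences from −1.36 to −0.75, with tumour 4 the lowest tumour on each. On 1 of the 5, all tumours lay below all normal ovaries. The mean of tumours LB14 and LB11 was 4.56 times the signal of tumour 4 for COL1A1 and 4.80 times for COL1A2. The group differences, −0.86 (SE 0.52, limma adjusted p = 0.658) and −0.80 (SE 0.54, adjusted p = 0.706), did not pass the threshold. For COL1A1 and COL1A2 the SD (log2) was 1.27 and 1.30 among tumours, and 0.40 and 0.42 among normal ovaries.

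COL3A1 encodes the single chain of collagen III, which mixes with collagen I in soft tissue. Its signals were 8932, 25339 and 23935 in the tumours and 24095, 22430 and 23478 in the normal ovaries, so tumour 4 lay far below a narrow normal range and tumour LB14 slightly above it. On this brightest probe set of COL3A1 the log2 deviation of tumour 4 from the normal mean was −1.38, the smallest in size of its 5 tested probe sets. On the other 4, all dimmer, it was −2.41, −2.77, −2.06 and −1.85, and tumour 4 was the lowest tumour on all 5. The group difference was −0.41 (SE 0.35, limma adjusted p = 0.769) on the brightest probe set, and the 5 ran from −0.96 to −0.41.

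COL5A1 and COL5A2 encode chains of collagen V, which lies inside collagen I fibres and limits their width. For COL5A1 the signals were 1042, 4634 and 4080 in the tumours, against 8633, 3796 and 4848 in the normal ovaries. For COL5A2 they were 743, 1469 and 1065 in the tumours, against 2924, 1908 and 1460 in the normal ovaries. COL5A2 overlapped only between tumour LB14 and normal ovary LB22, which were 1469 and 1460. Tumour 4 was again the lowest, and the differences were −0.998 (SE 0.53, limma adjusted p = 0.593) and −0.93 (SE 0.31, adjusted p = 0.353). The other tested probe set of COL5A1 had −1.20, with all tumours below all normal ovaries.

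Of the less abundant fibrillar genes, COL24A1 had 72.1, 278 and 290 in the tumours, against 679, 495 and 489 in the normal ovaries. Its groups did not overlap (difference −1.50, SE 0.45, limma adjusted p = 0.289), and neither did those of the second probe set for COL24A1, where the tumours were again the lower ones. COL27A1, another fibrillar chain, known from vertebrate cartilage, had 94.0, 609 and 211 in the tumours, against 455, 188 and 415 in the normal ovaries. In COL27A1 tumour LB14 was the highest of all ovaries and tumour 4 the lowest.

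On their brightest probe sets, the cartilage chains COL2A1 and COL11A1 did not have tumour 4 below all normal ovaries, unlike collagen I. COL2A1, the chain of the main cartilage collagen, had signals of 184, 61.9 and 387 in the tumours, against 123, 127 and 145 in the normal ovaries, and tumours alone took both the highest and the lowest place. COL11A1, whose product initiates fibres in cartilage, had 153, 435 and 175 in the tumours, against 298, 108 and 189 in the normal ovaries. Their differences were 0.32 (SE 0.52, limma adjusted p = 0.892) and 0.29 (SE 0.45, adjusted p = 0.888). The 3 tested probe sets of COL11A1 ran from −0.59 to 0.29, with tumour 4 the lowest tumour on each. The 4 tested probe sets of COL2A1 ran from −0.0022 to 0.34. On its second brightest probe set, tumours 4, LB14 and LB11 deviated from the normal mean by only −0.0019, −0.16 and 0.15. As a group, the 9 fibrillar genes had a median deviation from the normal mean of −1.65 in tumour 4, −0.22 in tumour LB14 and −0.07 in tumour LB11 (log2).

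**Figure D2:**
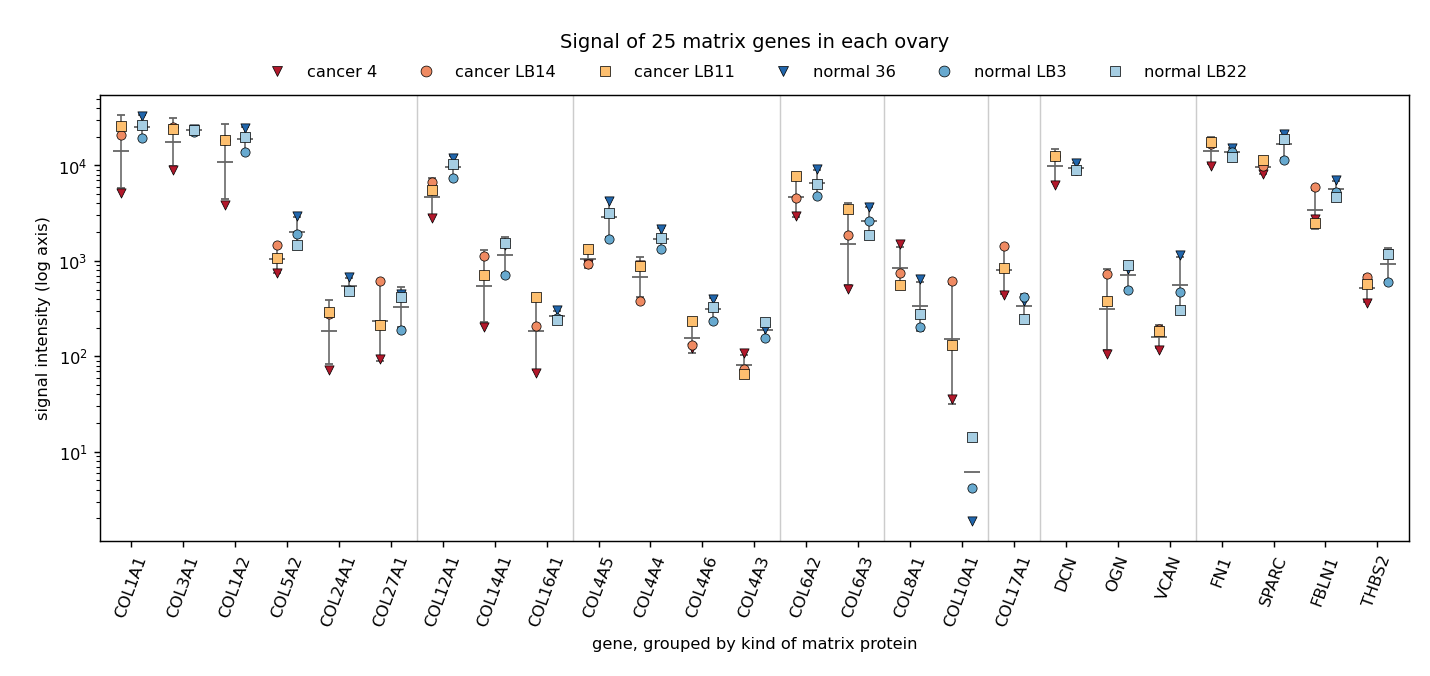
Signal intensity (log axis) of 25 matrix genes in each ovary, with the 3 tumours on the left and the 3 normal ovaries on the right of each gene; the bar is the group mean ± SD of log2(signal + 16), drawn without the SD for COL10A1 in normal ovaries. Tumour 4, the dark red triangle, is the lowest point for COL1A1 (5138), COL1A2 (3863) and COL3A1 (8932).

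Among the fibril-associated collagens, COL12A1, which links fibres to their surroundings, was the brightest. COL12A1 had 2823, 6689 and 5565 in the tumours, against 12002, 7437 and 10320 in the normal ovaries, without overlap (difference −1.04, SE 0.31, limma adjusted p = 0.288). All 3 of its tested probe sets had negative differences (−1.40 to −0.71), and 2 of them were free of overlap. COL14A1, a related coat protein of fibres, had 204, 1127 and 711 in the tumours, against 1465, 705 and 1529 in the normal ovaries. Only tumour 4 lay below every normal ovary in COL14A1, and its 4 tested probe sets disagreed in sign, from −1.37 to 0.95.

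COL16A1, of the same family, had 67.1, 208 and 423 in the tumours, against 306, 253 and 240 in the normal ovaries. The tumours spread from far below to above the normal ovaries, and the SD (log2) was 1.21 among tumours and 0.18 among normal ovaries. COL20A1 showed the same order of tumours, with 44.8, 117 and 241, against 280, 237 and 176 in the normal ovaries. The other 4 tested genes of the family (COL19A1, COL21A1, COL22A1 and COL9A3) had differences between −0.22 and 0.16. On the other tested probe set of COL9A3 the difference was −0.44, with all tumours below all normal ovaries. The family's median deviation was −1.40 in tumour 4, −0.19 in LB14 and 0.02 in LB11.

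Type VI collagen had the lowest group median in tumour 4. COL6A3, its longest chain, had 510, 1866 and 3529 in the tumours, against 3637, 2627 and 1886 in the normal ovaries. COL6A1 had 1387, 3780 and 6090 in the tumours, against 7084, 3719 and 4728 in the normal ovaries. COL6A2 had 2974, 4544 and 7716 in the tumours, against 9136, 4791 and 6362 in the normal ovaries. For all 3 chains tumour 4 was the lowest of the 6 ovaries and tumour LB11 the highest tumour. The median deviation of the 3 chains was −1.84 in tumour 4, −0.49 in LB14 and 0.29 in LB11, and their limma adjusted p-values lay between 0.731 and 0.736.

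Type IV collagens followed another pattern, in which the minor chains were low in every tumour. In mammals the chains assemble as a ubiquitous network of COL4A1 and COL4A2 products and as more restricted networks that use the products of COL4A3 to COL4A6. COL4A5 had 927, 919 and 1348 in the tumours, against 4231, 1712 and 3206 in the normal ovaries (difference −1.43, SE 0.32, limma adjusted p = 0.173, the lowest of the 44). COL4A4 had 898, 383 and 876 in the tumours, against 2178, 1341 and 1727 in the normal ovaries (−1.33, SE 0.34, adjusted p = 0.223). Neither gene's groups overlapped, and in both the tumour with the lowest signal was LB14, not 4.

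COL4A3 was dimmer, with 107, 73.7 and 65.8 in the tumours, against 195, 156 and 227 in the normal ovaries (−1.10, SE 0.28, limma adjusted p = 0.228). COL4A6 had 123, 132 and 233 in the tumours, against 395, 235 and 327 in the normal ovaries (−0.93, SE 0.31, adjusted p = 0.346). In COL4A6 the gap was narrow, since tumour LB11 at 233 lay just under normal ovary LB3 at 235. Probe sets agreed in part. The second of 4 for COL4A5 was free of overlap too (adjusted p = 0.104, the lowest of all 91 tested member probe sets), while the dimmer ones had differences of 0.25 and −0.44, and the other tested probe set of COL4A3 had −0.23 with overlap.

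For the ubiquitous chains the groups overlapped. COL4A1 had 1095, 2492 and 1639 in the tumours, against 2979, 1529 and 2070 in the normal ovaries. COL4A2 had 3182, 5896 and 4354 in the tumours, against 8218, 3675 and 5487 in the normal ovaries. Their differences were −0.36 (SE 0.33, limma adjusted p = 0.801) and −0.34 (SE 0.31, adjusted p = 0.797), and whether the minor chains differ more than these was not tested. The 5 tested probe sets of COL4A2 disagreed in sign, from −0.41 to 0.85. In the RefSeq gene table of the assembly GRCg7b the 6 genes lie as neighbouring pairs, COL4A1 with COL4A2, COL4A3 with COL4A4, and COL4A5 with COL4A6.

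Genes of the steroid-making follicle cells were low in the same tumours. All 13 genes of that marker list (among them STAR, CYP11A1, CYP17A1, CYP19A1, FSHR, AMH and FOXL2) had negative differences, against 50.5% of all tested probe sets. In 11 of them all tumours lay below all normal ovaries (8.03% of all), and 0 of 13 passed limma's threshold. At an unadjusted limma p under 0.05, 0 were higher (5.06% of all) and 11 lower (5.01% of all). Their summed signal lay between 18452.5 and 35347 in tumours and between 51284 and 68445 in normal ovaries. No gene of the list was at or below background in all 3 ovaries of either group. Their part in the type IV values was not tested.

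COL10A1 and COL8A1, the 2 tested short-chain collagens, and COL17A1 had positive differences. For COL10A1 the filter favoured that sign, since the gene entered the test only through its tumour signals. The untested short-chain gene COL8A2 had mean signals of 53.3 in tumours and 64.6 in normal ovaries. COL10A1, the chain of collagen X, which is known from growth-plate cartilage and, in hens, from the eggshell membranes, had 35.7, 617 and 130 in the tumours. In the normal ovaries COL10A1 had 1.90, 4.13 and 14.2, under the background limit each time. With the background limits in place of the normal signals, the geometric mean of the tumours was at least 3.56-fold higher. The gene did not pass limma's test (adjusted p = 0.235). Tumour 4, at 35.7, was above its own array's limit of 25.5 but below the limits of the normal arrays (38.6 to 42.0), so the bound does not hold for it. The fitted size of the COL10A1 difference depends on the pseudocount, because its normal signals were all under background. The tumours themselves differed 17.3-fold between LB14 and 4.

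COL17A1 encodes a membrane-spanning collagen of hemidesmosomes, the anchors of epithelial cells. It had 438, 1422 and 833 in the tumours, against 381, 417 and 245 in the normal ovaries, with tumour 4 close above the highest normal ovary (difference 1.21, SE 0.40, limma adjusted p = 0.345). COL8A1, a short-chain collagen of vessel walls, had 1492, 741 and 558 in the tumours, against 648, 205 and 280 in the normal ovaries. Here tumour 4 was the highest, only LB11 fell within the normal range, and the difference was 1.30 (SE 0.46, adjusted p = 0.372). On the dimmer probe sets of COL8A1 the differences were 0.33 and 0.19.

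Epithelial markers were read beside COL17A1. Of 9 tested, 3 (CDH1, CLDN3 and CLDN10) rose past limma's threshold, against 0.234% of all tested probe sets. In 5 all tumours lay above all normal ovaries (7.45% of all), and 4 overlapped. In each normal ovary 1 of the 9 was at or below background, against 0 in each tumour. A marker under background in all normal ovaries could pass the filter only through its tumour signals, which favoured its sign and its place above them. The summed signal of the list was 44795, 67578 and 29574 in tumours 4, LB14 and LB11, against 20292 to 23571 in normal ovaries. Markers of chondrocytes were read beside COL10A1. Of 6 tested, 0 passed limma's threshold. At an unadjusted limma p under 0.05, 1 was higher (5.06% of all tested probe sets) and 0 lower (5.01% of all). Their differences were negative in 3 and positive in 3, with a median of 0.034. ACAN, which was too dim to be tested, had 11.8, 66.2 and 120 in the tumours, against 6.46, 21.3 and 14.9 in the normal ovaries. Its signals in tumour 4 and in all 3 normal ovaries were under their arrays' background limits (25.5, and 38.6 to 42.0). The list's summed signal lay between 1283 and 5874 in tumours and between 1940 and 2628 in normal ovaries. Of the 10 matched egg-white gland genes, 7 rose past limma's threshold (0.234% of all). In normal ovaries 36, LB3 and LB22, 3, 4 and 5 of the 10 were at or below background, against 0 in each tumour. A gene at or below background in every normal ovary could enter the test only through its tumour signals, so the filter favoured its sign. The sum of the 10 was 60164 in tumour 4, 113031 in LB14 and 93828 in LB11, against 806 to 2202 in normal ovaries. Neither list's part in the collagen values was tested. The remaining membrane and multiplexin chains, COL13A1, COL23A1 and COL18A1, the source of endostatin, had differences of 0.36, −0.40 and 0.26. The other tested probe set of COL13A1 had the opposite sign (−0.50).

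Among the proteoglycans, VCAN, which encodes versican, a large protein that binds hyaluronan, was low in every tumour. Its signals were 116, 192 and 185 in the tumours, against 1163, 467 and 308 in the normal ovaries (difference −1.69, SE 0.44, limma adjusted p = 0.233), and its second probe set was free of overlap as well (−1.52). Of the 44 tested genes, VCAN also had the widest spread among normal ovaries, with an SD of 0.95 (log2), against 0.36 among tumours. OGN, osteoglycin, which belongs to the small leucine-rich proteoglycans of collagen fibres, had 107, 733 and 383 in the tumours, against 816, 496 and 903 in the normal ovaries, and only tumours 4 and LB11 lay below the normal range.

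The other small proteoglycans, decorin (DCN) and lumican (LUM), bind and space collagen fibres, and their genes are neighbours in the RefSeq table. DCN had 6289, 12449 and 12457 in the tumours, against 10678, 9023 and 8915 in the normal ovaries. LUM had 2870, 8756 and 4670 in the tumours, against 4441, 4198 and 3395 in the normal ovaries. For both genes tumour 4 was below all normal ovaries and both other tumours were above them, so that the group differences were 0.06 (SE 0.26, limma adjusted p = 0.966) and 0.30 (SE 0.35, adjusted p = 0.849).

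FN1, fibronectin, a cell-adhesion protein of the matrix, gave 9936, 16881 and 17497 in the tumours, against 15345, 13901 and 12282 in the normal ovaries, with tumour 4 below and the others above the normal range (0.05, SE 0.22, limma adjusted p = 0.964). POSTN, periostin, a protein of fibre-rich and healing tissue, had 1118, 4532 and 3759 in the tumours, against 3463, 6114 and 2144 in the normal ovaries. TNC, tenascin C, had 109, 262 and 339 in the tumours, against 240, 158 and 190 in the normal ovaries, again with tumour 4 below and the others above.

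SPARC, a collagen-binding protein that fibroblasts secrete, differed less between tumours, with 8144, 9850 and 11517, against 21422, 11384 and 18817 in the normal ovaries (difference −0.77, SE 0.24, limma adjusted p = 0.303). Only tumour LB11 overlapped with normal ovary LB3, and all 3 tested probe sets of SPARC had differences between −0.77 and −0.62. THBS2, a thrombospondin that affects fibre assembly, had 361, 670 and 572 in the tumours, against 1168, 601 and 1168 in the normal ovaries. FBLN1, fibulin 1, had 2750, 5983 and 2499 in the tumours, against 7064, 5281 and 4726 in the normal ovaries, and here tumour LB11 was the lowest. THBS1 and FBN1, fibrillin 1, were dim, at means of 75.3 and 146, with differences of 0.69 (SE 0.33) and 0.33 (SE 0.32).

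Among all 3 tumours, the matrix genes were spread more than among the normal ovaries, as were most tested probe sets. The SD (log2) among tumours ranged from 0.18 (COL9A3) to 1.82 (COL10A1), with a median of 0.69, and the median SD among normal ovaries was 0.40. Over all tested probe sets the medians were 0.34 among tumours and 0.22 among normal ovaries. The tumours had the larger SD in 33 of the 44 genes, and this was so in 69.4% of all tested probe sets. An SD above 1 occurred among tumours in 14 of the 44 genes (4.34% of all) and among normal ovaries in 0 of 44 (1.17% of all). These 14 were COL10A1, COL6A3, OGN, COL1A2, COL1A1, COL27A1, COL14A1, COL16A1, COL2A1, COL5A1, POSTN, COL6A1, COL20A1 and COL24A1. Without tumour 4 the count was 3 (COL10A1, COL2A1 and COL27A1), and the median SD was 0.36 over the 44 genes and 0.28 over all tested probe sets. Tumour 4 was picked for its values, so a fall in spread follows from that choice. Without LB14 the median SD of the 44 genes was 0.62 and 14 were above 1. Without LB11 these were 0.81 and 16. With 1 normal ovary left out, the median SD of the 44 genes among the other normal ovaries was 0.27 to 0.44. Over all tested probe sets it was then 0.16 to 0.19.

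**Figure D3:**
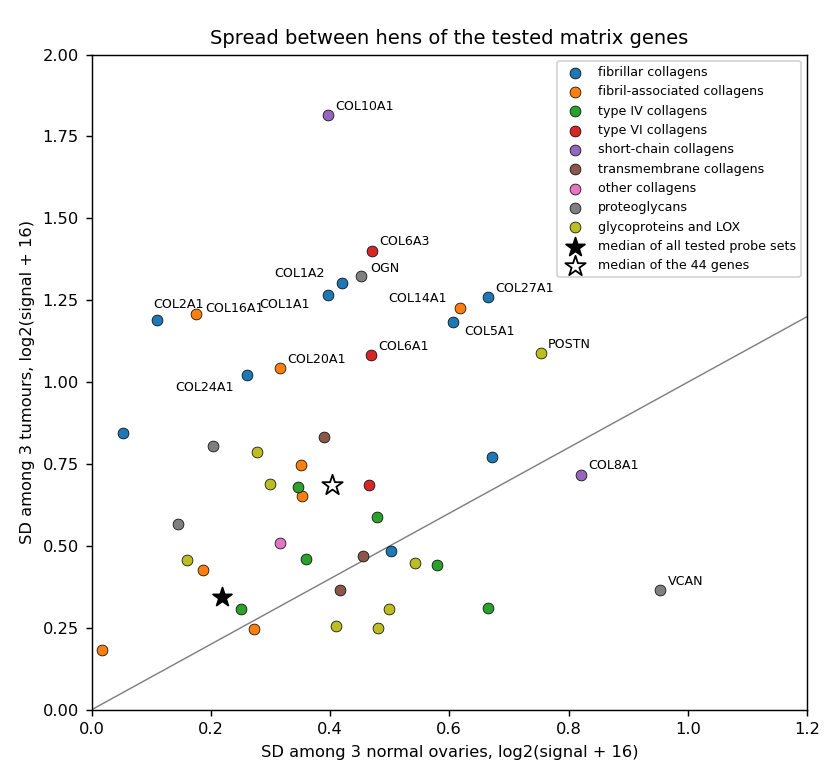
SD of log2(signal + 16) among the 3 tumours (vertical) against the SD among the 3 normal ovaries (horizontal) for the 44 tested matrix genes; the line marks equal spread, and the stars are the medians of the 44 (0.69 and 0.40) and of all tested probe sets (0.34 and 0.22). COL10A1, COL6A3, OGN, COL1A2 and COL1A1 lie highest, and VCAN lies furthest to the right.

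Tumour 4 stood furthest from the others. It was the lowest of the 6 ovaries in 28 of the 44 genes (20.6% of all tested probe sets) and the lowest of the 3 tumours in 34 (34.0% of all). Its log2 deviation from the normal mean was under −1 in 23 of the 44 genes, against 4.59% of all tested probe sets. In tumour LB14 this held for 5 genes (4.45% of all) and in tumour LB11 for 4 (2.36% of all). The median deviation over the 44 genes was −1.03 in tumour 4, −0.05 in LB14 and −0.03 in LB11, while over all tested probe sets it was −0.01, −0.01 and 0.03. The median size of the difference between tumours 4 and LB14 was 1.14 over the 44 genes (0.45 over all). It was 0.87 (0.34) between 4 and LB11, and 0.51 (0.39) between LB14 and LB11. Among pairs of normal ovaries it ran from 0.39 to 0.62 (0.22 to 0.27 over all). From the mean of the other 2, normal ovaries 36, LB3 and LB22 had median deviations of 0.46, −0.40 and −0.024 over the 44 genes. Over all tested probe sets these were −0.017, 0.042 and 0.00098.

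The genes in which tumour 4 was not the lowest tumour were COL2A1, COL4A3, COL4A4, COL4A5, COL8A1, COL9A3, COL13A1, COL19A1, COL23A1 and FBLN1. Counted over all 91 tested probe sets of the members, tumour 4 was the lowest tumour in 68 and the lowest ovary in 56.

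**Figure D4:**
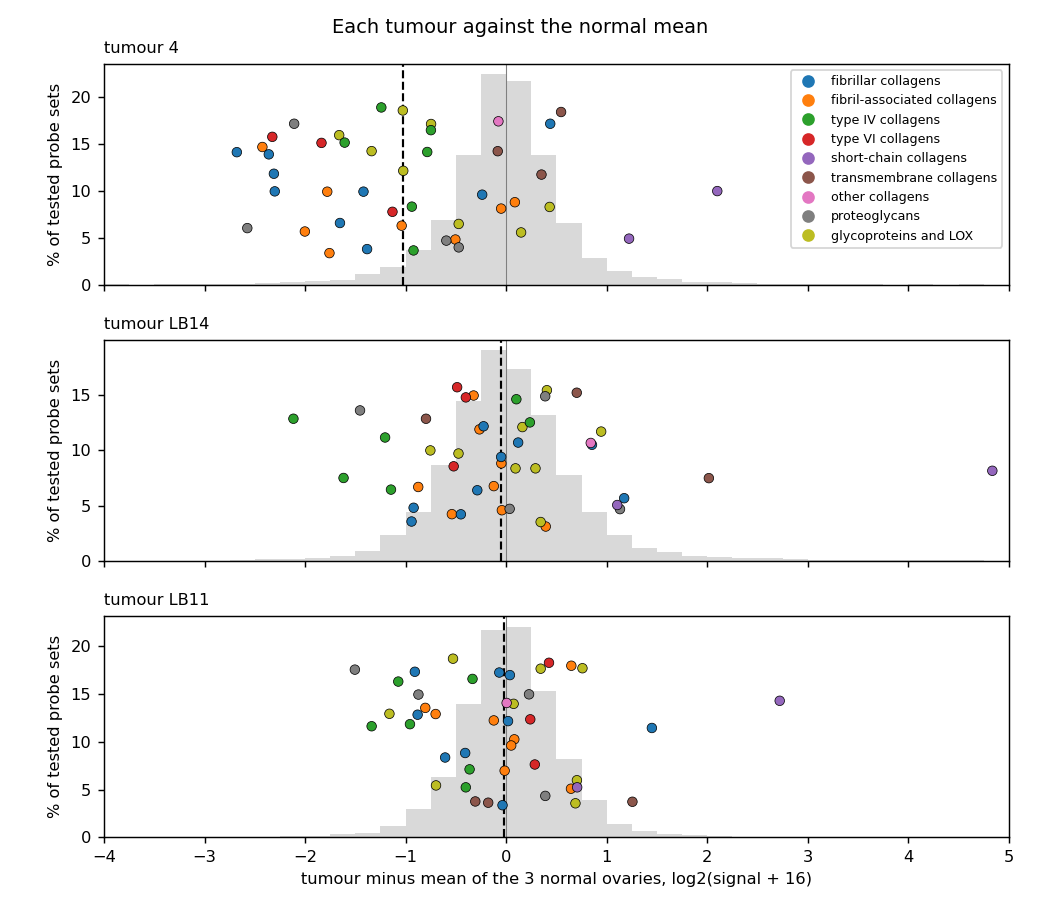
Deviation of each tumour from the mean of the 3 normal ovaries on the log2(signal + 16) scale: grey bars are the percentage of all 23063 tested probe sets per bin, coloured points are the 44 matrix genes (their height carries no value), and dashed lines are the medians of the 44. The points of tumour 4 lie mostly left of 0 (median −1.03), while those of LB14 and LB11 are centred near 0 (−0.05 and −0.03).

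Enzymes and chaperones that process collagen were mostly on the negative side. Of 27 matched genes of collagen processing and crosslinking, 25 were tested with limma, and 0 passed. At an unadjusted limma p under 0.05, 0 were higher (5.06% of all tested probe sets) and 4 lower (5.01% of all). The difference was negative in 17 (50.5% of all tested probe sets), and the median was −0.21 (−0.0039 over all). SERPINH1, the collagen chaperone HSP47, had 2389, 5569 and 6464 in the tumours, against 13339, 8336 and 11147 in the normal ovaries (difference −1.28, SE 0.35, adjusted p = 0.246). P4HA1, a catalytic subunit of prolyl 4-hydroxylase, had 2190, 1840 and 1717 in the tumours, against 4027, 2710 and 3427 in the normal ovaries (−0.81, SE 0.20, adjusted p = 0.210). TLL1, a protease that trims procollagen, had 354, 763 and 1402 in the tumours, against 1849, 1795 and 1885 in the normal ovaries. In these 3 genes and in 1 other of the list all tumours lay below all normal ovaries, against 8.03% of all tested probe sets. P4HA3, another such subunit, had 35.9, 177 and 103 in the tumours, against 580, 147 and 298 in the normal ovaries. The median deviation of the list was −0.28 in tumour 4, −0.15 in LB14 and −0.16 in LB11.

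Fibroblast and mesenchyme markers were low in tumour 4 as the matrix genes were. In 10 of 12 tested markers tumour 4 was the lowest of the 6 ovaries (20.6% of all tested probe sets). The summed signal of the 13 matched genes was 15317, 22383 and 23527 in tumours 4, LB14 and LB11, against 22305 to 26105 in normal ovaries. PDGFRB, a receptor of fibroblasts and pericytes, had 587, 2136 and 1990 in the tumours, against 2316, 2247 and 2214 in the normal ovaries. TCF21, a transcription factor of mesenchymal cells, had 511, 2462 and 1455 in the tumours, against 3408, 1777 and 2385 in the normal ovaries. VIM, vimentin, had 9247, 8682 and 10612 in the tumours, against 10446, 10894 and 10274 in the normal ovaries. 0 of 12 passed limma's threshold. At an unadjusted limma p under 0.05, 0 were higher (5.06% of all tested probe sets) and 1 lower (5.01% of all). The part of these cells in the matrix values was not tested.

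Smooth muscle and pericyte markers separated the tumours as well. Their summed signal was 12751 in tumour 4, 24918 in LB14 and 49354 in LB11, against 15523 to 25309 in normal ovaries. Of 8 tested genes 0 passed limma's threshold. At an unadjusted limma p under 0.05, 1 was higher (5.06% of all tested probe sets) and 0 lower (5.01% of all). ACTG2, an actin of smooth muscle, had 424, 869 and 11989 in the tumours, against 2574, 890 and 1883 in the normal ovaries. Macrophage and leukocyte markers summed to 21707, 39410 and 43269 in tumours 4, LB14 and LB11, against 27775 to 46837 in normal ovaries. Of these 12 genes 0 passed limma's threshold. At an unadjusted limma p under 0.05, 0 were higher (5.06% of all) and 0 lower (5.01% of all). Endothelial markers summed to 5907, 5277 and 7933 in the tumours, against 7566 to 8289 in normal ovaries, with 0 of 12 past limma's threshold. Unadjusted, 1 was higher (5.06% of all) and 2 lower (5.01% of all). Tumour 4 had the lowest sum of the 6 ovaries in the fibroblast, smooth muscle, macrophage and chondrocyte lists, and tumour LB14 had it in the endothelial list; the part of these cells in the matrix values was not tested.

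**Figure D5:**
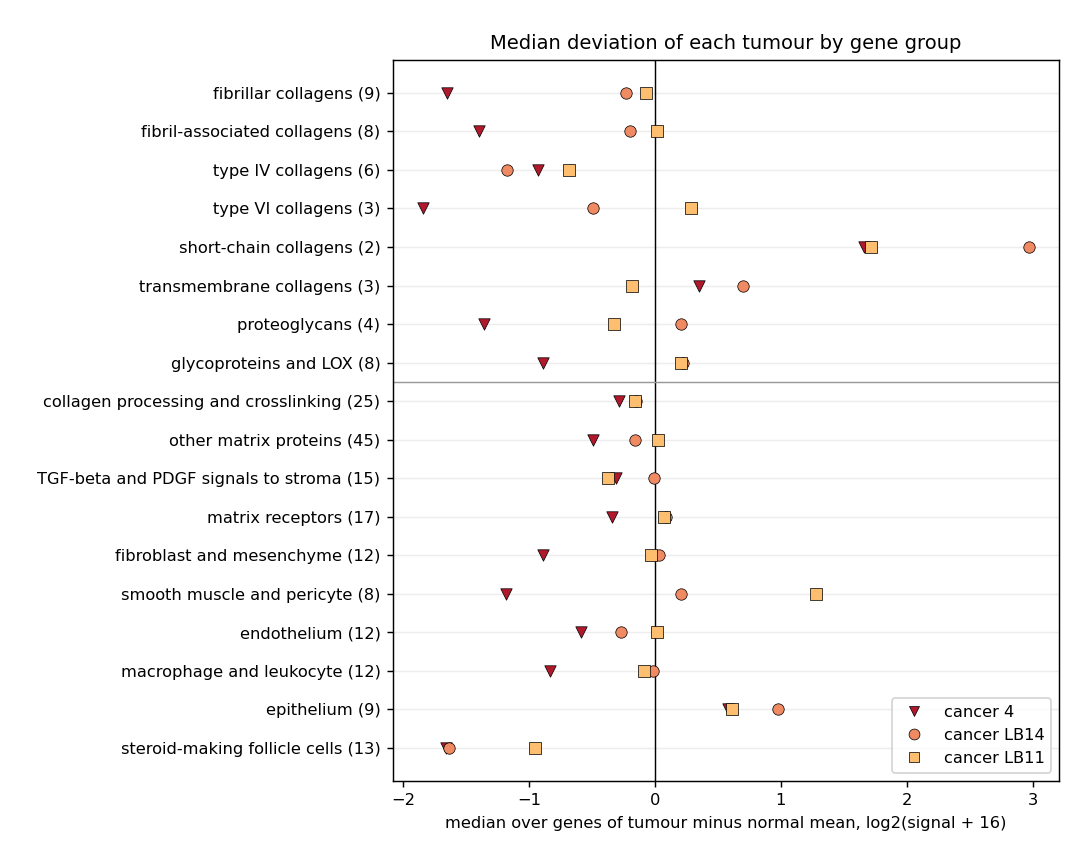
Median over genes of each tumour's deviation from the normal mean on the log2(signal + 16) scale, for kinds of matrix gene (above the grey line) and for other gene lists (below it), with the number of tested genes in brackets. Tumour 4 lies at −1.65 for fibrillar and −1.84 for type VI collagens, while for type IV collagens LB14 is the lowest at −1.17.

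The 10 genes that did not pass the filter were COL6A6, COL7A1, COL8A2, COL9A1, COL9A2, COL15A1, COL25A1, COL26A1, COL28A1 and LOX, the gene of the enzyme that crosslinks collagen and elastin. Their signals ran from 4.13 to 105, with means between 22.7 and 64.4. In 9 of them the groups overlapped, and in COL9A1, a chain of a cartilage collagen, all tumours (93.5, 52.2 and 66.9) lay above all normal ovaries (48.6, 47.5 and 4.13), near the background limits.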

How the data were processed

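Biotin-labelled total RNA from 6 whole ovaries was read on 1-colour arrays. The deposited values are linear signal intensities per probe set, made by the authors; the submitters' processing notes name GCOS, without the version or settings in the sources used here. The values show scaling to a common trimmed mean, so no further normalization was applied.

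Of 38535 probe sets, 96 controls and 15376 below the 40th percentile of mean signal (66.9) were left out. log2(signal + 16) was fitted with limma 3.58.1 in R 4.3.3 (two-sided moderated tests, trended eBayes, Benjamini-Hochberg adjustment), checked on simulated data. In that check log2 increases of 1, 2 and 4 were recovered in 27.1%, 94.7% and 100% of cases, and 6.72% of calls were false. Most changes of 1 were thus missed. The check drew from all tested probe sets, with equal spread in both groups. The matrix genes had a larger median SD among tumours (0.69, against 0.34 over all), so these rates do not carry over to them. A matrix gene that did not pass may differ by 1 or more. Background limits, chosen after the values were seen, are the 95th percentile of 59 control probe sets per array. 27178 probe sets had 1 symbol in the platform's annotation, 177 several and 11180 none; 53 of the 54 members matched the RefSeq gene table by ID.

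Members and lists were chosen with earlier results of these data known, and support no direction. Full values were given for the 8 genes lowest in p, highest in signal and highest in tumour SD each, filled to 25 by p, and other members' values were added, after they were seen, for their family; up to 4 genes per list were named by p, while list genes named only as markers, ACAN, VIM and ACTG2 were chosen after their values were seen. Synonyms were matched through the gene table. Alternatives were pseudocounts of 1 and 64, no filter or the 60th percentile, quantile or 75th-percentile scaling, no trend, robust fitting, array weights, the title prefix LB as a block, LB hens alone, gene means, a threshold of 0.1, and leaving out each hen.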

Additional observations from a re-analysis of the deposited data

How the results depend on the processing

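No matrix gene passed the threshold under any of the 19 alternatives; the lowest adjusted p was 0.0670 (COL10A1 without tumour 4; 0.0670 to 0.699 over its alternatives). The difference of COL10A1, whose normal signals are all under background, was 2.93 with the pseudocount of 16, 4.56 with 1 and 1.74 with 64, so its size and p are not to be read as measured. The 54 higher probe sets were 87 at a threshold of 0.1, 34 with gene means, 35 when no trend was fitted, 21 when the LB hens were used by themselves, and 23 to 163 with 1 hen left out. The 10 lower were 24 at a threshold of 0.1, 1 in the LB hens, 21 with array weights, 6 if unfiltered, 3 when no trend was fitted, and 0 to 25 with 1 hen left out. The members' median difference of −0.44 was −0.66 to −0.06 with 1 hen left out and 0.14 in the LB hens alone. Without tumour 4, chosen after seeing the data, 7 genes lay above all normal ovaries in place of 2. Over all tested probe sets that share was 15.1% in place of 7.45%, so the rise is not particular to the matrix genes. An SD above 1 occurred in 3 genes in place of 14. The median deviation of tumour 4 stayed between −1.20 and −0.85 with 1 normal hen left out, while that of LB14 lay between −0.24 and 0.11 and that of LB11 between −0.17 and 0.057.

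Of 819 gene values, 35 in 23 genes changed sign and 784 did not. Another filter, no trend, robust fitting, the threshold of 0.1 and the LB block leave the difference of a gene unchanged. Their signs could not change, so the count of 784 does not measure stability. In the LB hens alone, without tumour 4 and normal ovary 36, COL1A1 was 0.054, COL1A2 0.15, COL3A1 0.10, COL5A1 0.019, COL6A1 0.19, COL6A2 0.10, COL6A3 0.20, COL4A1 0.18, COL4A2 0.17, COL16A1 0.26, COL22A1 0.29, COL27A1 0.35 and POSTN 0.19. With 1 hen left out COL3A1 ran from −0.67 to 0.078, COL16A1 from −1.04 to 0.16, COL22A1 from −0.49 to 0.22, COL27A1 from −1.13 to 0.12, POSTN from −0.79 to 0.21, COL2A1 from −0.24 to 0.94, COL9A3 from −0.14 to 0.036, COL11A1 from −0.15 to 0.62, COL18A1 from −0.036 to 0.43, COL19A1 from −0.086 to 0.30, DCN from −0.10 to 0.39, FN1 from −0.090 to 0.32, LUM from −0.12 to 0.68 and TNC from −0.17 to 0.58. FN1 was −0.036 with quantile normalization and COL11A1 −0.032 with array weights, and with gene means COL13A1 was −0.049 and COL4A2 0.12. Apart from the left-out hens, the cause was not tested. No paired analysis was possible because the groups share no replicate numbers.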

Other observations

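Other matrix proteins outside the collagens had differences of both signs. Of 45 tested genes of that list 0 passed limma's threshold. At an unadjusted limma p under 0.05, 4 were higher (5.06% of all tested probe sets) and 7 lower (5.01% of all). The difference was negative in 30 (50.5% of all tested probe sets). In 5 all tumours lay below all normal ovaries (8.03% of all), and in 6 they lay above (7.45% of all). FMOD, fibromodulin, a small proteoglycan that binds collagen I, had 691, 923 and 735 in the tumours, against 338, 138 and 238 in the normal ovaries (difference 1.72, SE 0.31, limma adjusted p = 0.0880). MATN4, a matrilin, had 111, 164 and 116 in the tumours, against 47.7, 54.2 and 42.4 in the normal ovaries. Each normal signal of MATN4 was under the filter limit of 66.9. MATN4 entered the test only through its tumour signals, so the filter favoured its sign and its place above the normal ovaries. FBN2, fibrillin 2, had 119, 284 and 123 in the tumours, against 842, 328 and 780 in the normal ovaries (−1.80, SE 0.43, adjusted p = 0.199), and NID2, which links basement membrane proteins, had 154, 244 and 270 in the tumours, against 478, 304 and 466 in the normal ovaries. FMOD, MATN4, FBN2 and NID2 were all free of overlap, and tumour 4 did not stand apart in FMOD or MATN4.

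Of 17 tested matrix receptors 0 passed in limma. At an unadjusted limma p under 0.05, 1 was higher (5.06% of all tested probe sets) and 2 lower (5.01% of all). ITGA2, a subunit of a collagen-binding integrin, had 262, 234 and 197 in the tumours, against 566, 620 and 496 in the normal ovaries (−1.23, SE 0.22, limma adjusted p = 0.0801). Of 15 tested genes of TGF-beta and PDGF signalling 0 passed in limma. At an unadjusted limma p under 0.05, 0 were higher (5.06% of all) and 4 lower (5.01% of all). In 6 of the 15 all tumours lay below all normal ovaries (8.03% of all). SMAD7, an inhibitor of TGF-beta signalling, had 365, 273 and 276 in the tumours, against 1265, 497 and 760 in the normal ovaries (−1.33, SE 0.33, limma adjusted p = 0.212). SMAD2, a mediator of the same signals, had 713, 1420 and 1033 in the tumours, against 2733, 1510 and 2154 in the normal ovaries (−1.02, SE 0.30, adjusted p = 0.276).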
